A study of Rattus norvegicus with 20 samples.

Results

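Amino acid breakdown enzymes were examined in rat liver as a list of 47 genes drawn up from the pathways that degrade phenylalanine and tyrosine, tryptophan, histidine, serine and alanine, aspartate and asparagine, glutamine and glutamate, ornithine and proline, the branched-chain amino acids, lysine, and glycine. The genes were listed by function, with earlier results of these data known. Measured values entered the rule only in the choice of probe set, the one with the highest mean z over all 20 rats. Probe sets with these symbols represented 45 of the 47 genes, out of 14217 genes on the Affymetrix Rat Genome GeneChip arrays, and Pcbd1 and Amdhd1 were not represented. The livers came from 20 male Sprague-Dawley rats without genetic modification, received at 4 weeks of age and fed for 3 weeks, with 1 array per rat. The CS group was fed casein and soybean oil, CF casein and fish oil, TS tofu and soybean oil, and TF tofu and fish oil, with 5 rats in each. All diets held 200 g/kg of protein and 150 g/kg of fat, of which fish oil made up 50 g/kg in CF and TF. By the study's methods the tofu diets also contained some casein, the tofu itself brought soybean fat, the rats that had eaten the most and the least in each group were not put on arrays, and food was removed shortly before dissection. The tofu groups therefore differed from the casein groups in more than the kind of protein.

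The liver is the main site at which dietary amino acids are broken down. Some pathways begin with removal of the amino group by a transaminase or a dehydratase, and others with a different reaction. The nitrogen passes through glutamate and aspartate to urea, while the carbon skeletons enter glucose synthesis, ketone bodies or the citric acid cycle. Several of the first enzymes (Tat, Tdo2, Sds, Hal) are known for transcripts that respond to protein intake, glucocorticoids and glucagon. Breakdown of the branched-chain amino acids differs, because liver has little of the transaminase and the limiting step is the branched-chain α-keto acid dehydrogenase complex, which the kinase Bckdk phosphorylates and thereby switches off.

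The deposited measure was a z score (log scale) for every probe set in every rat, and the probe set with the highest mean stood for its gene. By the study's methods a difference of 0.2 in z corresponds to a 1.41-fold difference, and the folds below use that scale. The term protein effect means both tofu groups minus both casein groups, and oil effect means both fish oil groups minus both soybean oil groups, each of 10 rats against 10. Differences were tested with limma over all 31039 probe sets, and a gene is called where its Benjamini-Hochberg adjusted p was under 0.05. Nothing in the sources says whether RNA was prepared in separate batches, so p-values measure the spread between these rats as they were processed. In these bulk samples fewer cells of a type and less RNA per cell cannot be told apart.

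Oat, Hpd, Gpt2 and Bckdk were the genes called, all in the comparison of tofu with casein, and their promoters are printed here because their differences are the ones the text turns on. The sequences are the 250 bases before the annotated start in RefSeq (build GRCr8), read 5′ to 3′ on the strand of the gene. RefSeq held such a sequence for 39 of the 45 genes. Capitals mark matches, on either strand, to any of 6 motifs: TGTTCT (a glucocorticoid half-site), TGACG (a cyclic AMP half-site), TGATGNAA (the core of an amino acid response element), AGGTCA (a nuclear receptor half-site), CCAAT and TATAAA. None of these motifs contains another. Hpd lies on the plus strand at chr12:39041996-39042245, Gpt2 on the minus strand at chr19:37732760-37733009, Oat on the minus strand at chr1:196797755-196798004 and Bckdk on the plus strand at chr1:191945559-191945808.
Hpd: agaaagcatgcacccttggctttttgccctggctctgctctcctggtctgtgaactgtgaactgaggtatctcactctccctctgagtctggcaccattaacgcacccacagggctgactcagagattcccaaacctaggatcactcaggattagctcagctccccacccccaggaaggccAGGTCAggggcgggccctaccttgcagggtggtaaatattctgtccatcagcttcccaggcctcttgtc
Gpt2: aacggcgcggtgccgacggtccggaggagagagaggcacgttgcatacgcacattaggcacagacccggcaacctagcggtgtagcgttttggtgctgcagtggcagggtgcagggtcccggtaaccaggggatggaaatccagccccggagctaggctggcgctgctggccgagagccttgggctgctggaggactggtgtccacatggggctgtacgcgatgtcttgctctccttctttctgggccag
Oat: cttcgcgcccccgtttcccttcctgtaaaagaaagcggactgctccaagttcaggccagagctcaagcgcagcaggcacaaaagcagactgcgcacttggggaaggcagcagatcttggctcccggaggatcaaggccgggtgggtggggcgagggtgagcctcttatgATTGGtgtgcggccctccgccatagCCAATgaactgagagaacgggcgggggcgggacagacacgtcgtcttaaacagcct
Bckdk: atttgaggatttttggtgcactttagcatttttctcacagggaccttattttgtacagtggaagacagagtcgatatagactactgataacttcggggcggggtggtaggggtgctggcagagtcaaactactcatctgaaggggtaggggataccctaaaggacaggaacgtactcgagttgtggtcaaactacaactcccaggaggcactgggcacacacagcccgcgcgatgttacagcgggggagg
Hpd held AGGTCA at positions -69 to -64 from the start, a motif found in 13.7% of all 27457 promoters of this length and in 9 of the 39 listed genes. Oat held CCAAT at -56 to -52 and, on the other strand, at -81 to -77, a motif found in 34.3% of all promoters and in 22 of the 39. No match was found in the windows of Gpt2 and Bckdk. TGTTCT was present in 17.1% of all promoters and 5 of the 39, TGACG in 19% and 4, TGATGNAA in 3.27% and 2, and TATAAA in 13.1% and 6. Such matches describe letters only and do not show binding.

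The 45 genes were among the strongly represented transcripts of these livers. Their mean z over the 20 rats had a median of 1.76, and 40 of them (88.9%) had a mean z above 1, compared with 19.6% of all genes. Hpd had the highest mean z (2.97), followed by Glud1 (2.60), Fah (2.58) and Tdo2 (2.57). The lowest were Acmsd (0.03) and Bcat2 (0.08), which lay near the highest array median of 0.022. Levels of different genes come from different probes, so this order describes signals and not transcript numbers. Spread between rats of the same diet also varied, from a pooled SD of 0.049 in z for Qdpr to 0.29 for Acmsd, 0.28 for Sds and 0.25 for Gpt, with a median of 0.087. Hepatocyte markers were high in every rat, with a mean over 7 genes between 3.19 and 3.46. The means of 5 lymphocyte markers and 5 cholangiocyte markers lay between -0.38 and 0.13. Other cell types lay between these levels, with means from 0.873 to 1.092 for 6 endothelial and 0.795 to 1.134 for 5 Kupffer cell markers. Means ran from 0.394 to 0.615 for 7 stellate cell markers and from 1.002 to 1.363 for 3 red blood cell markers.

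**Figure D1:**
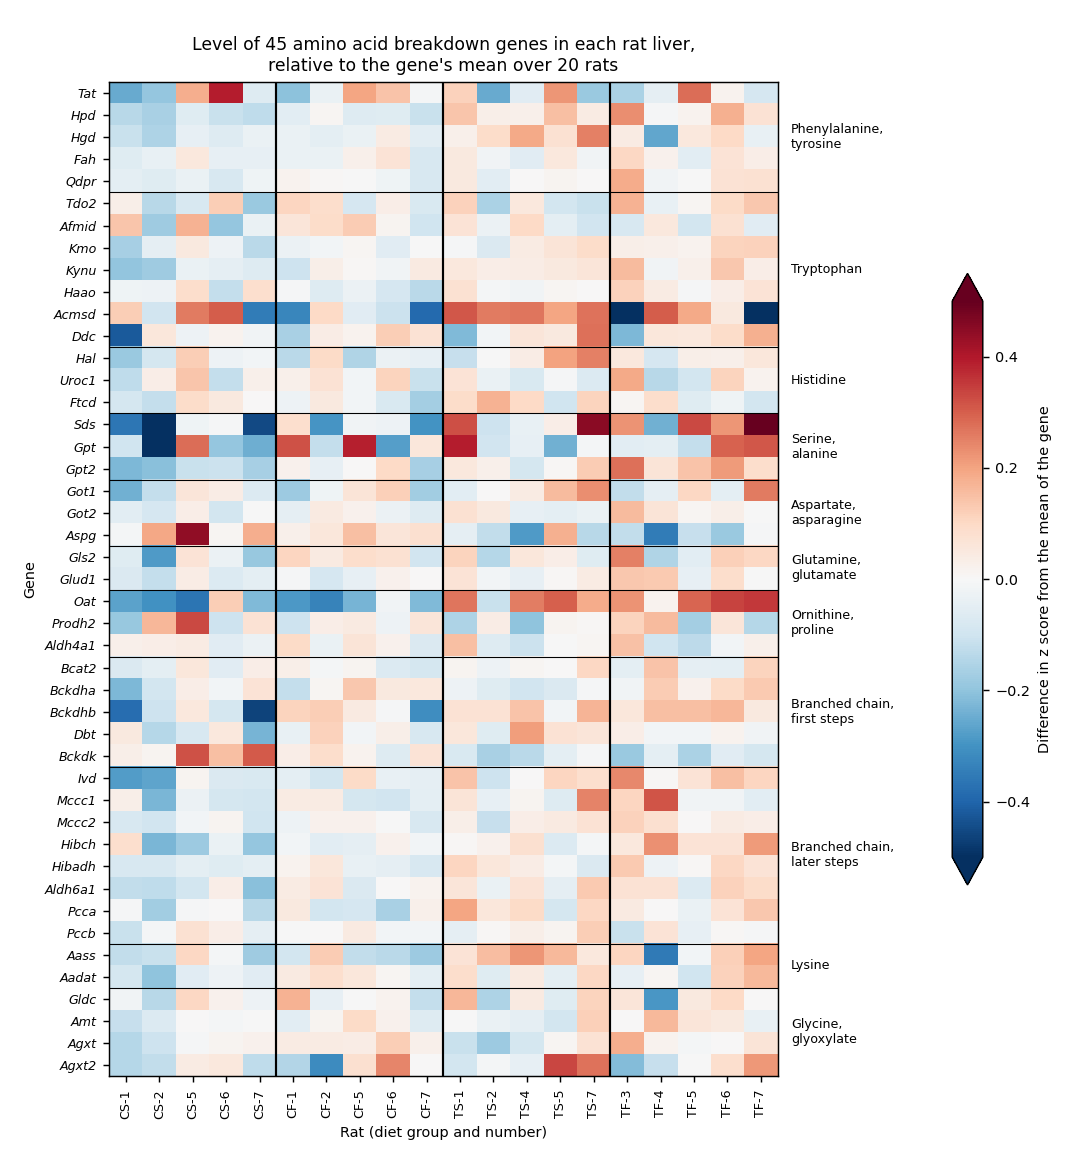
Difference in z score of each of the 45 genes (rows, grouped by amino acid) in each of the 20 rats (columns, grouped by diet) from the mean of that gene over all rats; red is above and blue below that mean, and values beyond 0.5 in either direction share the end colours. The row of Oat is blue in 9 of 10 casein rats and red in 9 of 10 tofu rats, while the row of Acmsd varies within groups.

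In the livers of rats fed tofu, Oat, Hpd and Gpt2 were higher and Bckdk was lower than in rats fed casein, by 2.07-fold for Oat and by 1.35- to 1.39-fold for the other 3. Of the 45 genes, 4 (8.89%) were called in the protein effect, 3 higher and 1 lower, where 0.921% of all genes were called, 0.521% higher and 0.401% lower. Among the 2784 genes with a mean z above 1, the range that held 40 of the 45, 2.48% were called. An unadjusted p under 0.05 was found for 21 of the 45 (46.7%), compared with 11.5% of all genes and 20.6% of those with a mean z above 1. The difference was above 0 for 37 genes (82.2%) and below 0 for 8, compared with 58.0% above 0 over all genes and 64.9% over genes with a mean z above 1. The median difference was 0.067 in z for the 45 genes and 0.011 for all genes. Averaged over the 45 genes, the z of single rats ran from 1.61 to 1.77 in CS, 1.66 to 1.75 in CF, 1.70 to 1.81 in TS and 1.73 to 1.81 in TF, so that the groups overlapped. For no single gene of the list did the 10 tofu rats lie wholly apart from the 10 casein rats, as they did for 0.148% of all genes.

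**Figure D2:**
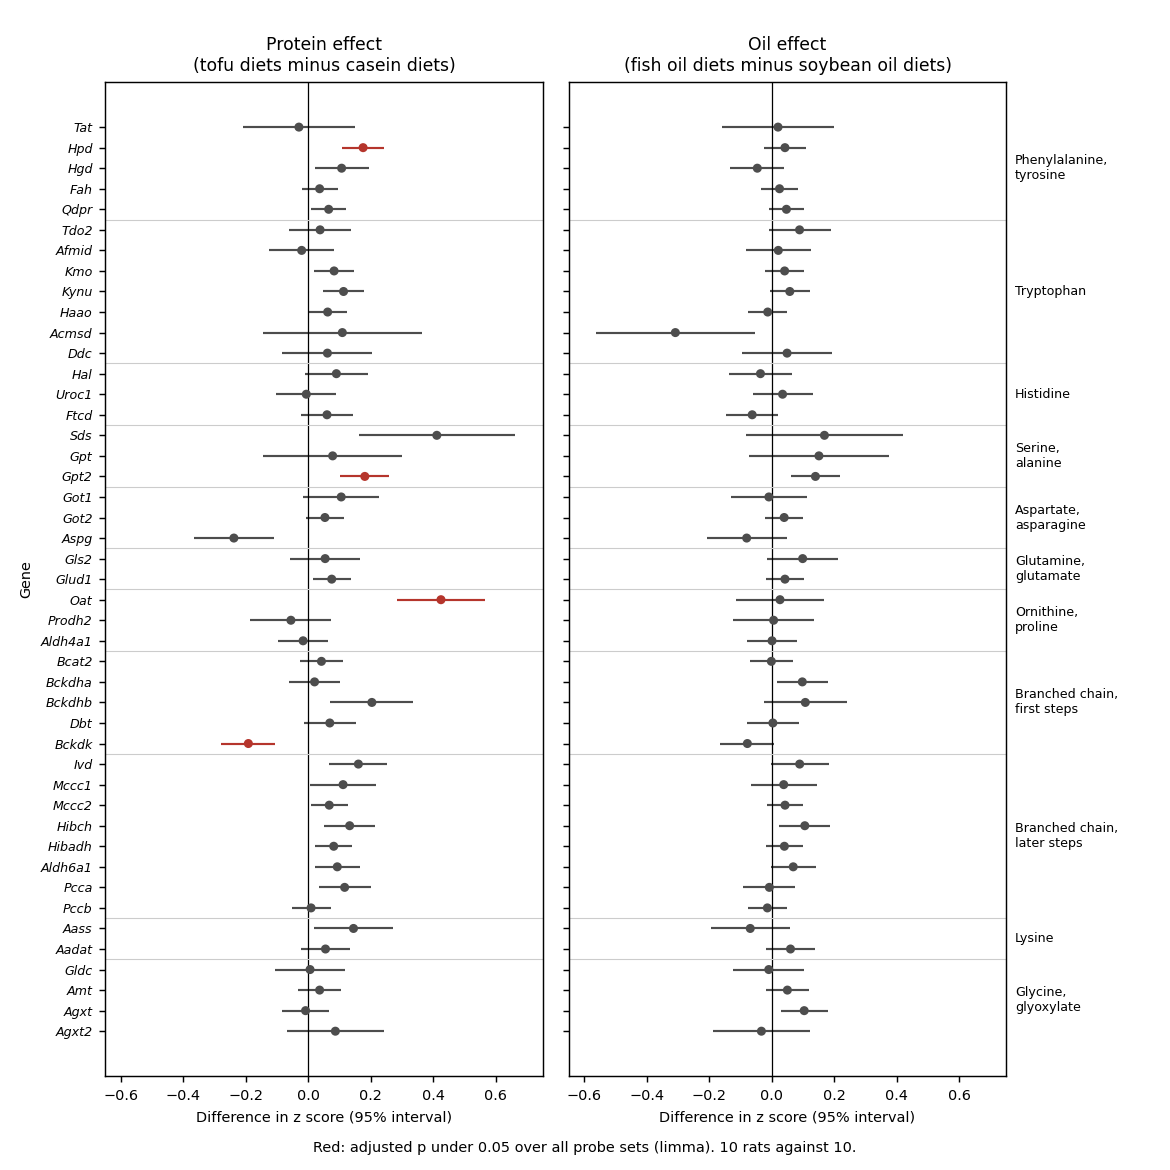
Protein effect (left) and oil effect (right) of the 45 genes as differences in z score with 95% intervals, 10 rats against 10, grouped by amino acid. Red marks an adjusted p under 0.05 over all probe sets (limma), which was reached by Oat, Hpd, Gpt2 and Bckdk on the left and by no gene on the right.

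Of the ornithine and proline enzymes, Oat (ornithine aminotransferase, which converts ornithine to the semialdehyde that leads to glutamate and proline) had the largest difference of the list. Its z was 1.78, 1.74, 1.68, 2.17 and 1.83 in the CS rats and 1.76, 1.71, 1.81, 2.03 and 1.82 in the CF rats. It was 2.31, 1.93, 2.30, 2.34 and 2.23 in the TS rats and 2.27, 2.06, 2.33, 2.38 and 2.40 in the TF rats. 8 of the 10 tofu rats lay above all casein rats, and the ranges overlapped through rats CS-6 and CF-6 at the top of the casein groups and rats TS-2 and TF-4 at the bottom of the tofu groups. The difference was 0.42 ± 0.067 in z (SE, adjusted p = 0.0043 by limma), or 2.07-fold. It was 0.39 on soybean oil and 0.46 on fish oil, with an oil effect of 0.026 (95% interval -0.11 to 0.17). Oat stayed called when any single rat was left out, with adjusted p from 6.2e-04 to 0.0118. Without the 4 rats described further on for a low actin control, the difference was 0.40 with an adjusted p of 0.0658. The other listed enzymes of this group gave smaller values. These were -0.056 (interval -0.19 to 0.07) for Prodh2, a hydroxyproline dehydrogenase, and -0.017 (-0.10 to 0.06) for Aldh4a1, which oxidizes the semialdehyde to glutamate.

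Phenylalanine and tyrosine breakdown runs from Tat, the tyrosine aminotransferase, through Hpd, Hgd and Fah, while Qdpr regenerates the cofactor of phenylalanine hydroxylase. Hpd, the 4-hydroxyphenylpyruvate dioxygenase that carries out the second step of tyrosine breakdown, rose on tofu. The z of Hpd was 2.84, 2.81, 2.91, 2.86 and 2.85 in CS, 2.92, 2.98, 2.91, 2.91 and 2.86 in CF, 3.11, 3.00, 3.00, 3.12 and 3.02 in TS, and 3.21, 2.97, 2.99, 3.15 and 3.04 in TF. 9 of the 10 tofu rats were above every casein rat, and TF-4 was below CF-2 only. The protein effect was 0.18 ± 0.033 (adjusted p = 0.0138), or 1.35-fold, and stayed called when any single rat was left out (adjusted p up to 0.0337), but not without the 4 rats with a low actin control (0.15, adjusted p = 0.10). Tat, the first enzyme, had group means of 1.35 (CS), 1.35 (CF), 1.30 (TS) and 1.34 (TF), with a difference of -0.030 (interval -0.21 to 0.15). Hgd (0.11, adjusted p = 0.359), Qdpr (0.065, 0.394) and Fah (0.036, 0.707) were above 0 and were not called.

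Serine and alanine are turned into pyruvate by Sds, the serine dehydratase, and by the alanine aminotransferases Gpt and Gpt2, and all 3 genes had differences above 0. Gpt2, the mitochondrial alanine aminotransferase, was the one called. Its z was 1.36, 1.38, 1.48, 1.48 and 1.42 in CS, 1.61, 1.54, 1.59, 1.69 and 1.42 in CF, 1.64, 1.61, 1.50, 1.59 and 1.71 in TS, and 1.86, 1.65, 1.73, 1.80 and 1.68 in TF. By group mean CS was the lowest and TF the highest, with CF and TS between them, and neighbouring groups overlapped. The protein effect was 0.18 ± 0.038 (adjusted p = 0.0326), or 1.36-fold. The call was lost without any 1 of 12 rats (CS-1, CS-2, CS-7, CF-2, CF-5, CF-7, TS-1, TS-2, TS-7, TF-3, TF-5 or TF-6), with adjusted p from 0.0518 to 0.0721. It was also lost after quantile normalization, where the difference was 0.16 (adjusted p = 0.0579). Without the 3 arrays least correlated with the others (TS-7, TF-4 and TF-5) the difference was 0.19 (0.075) and not called. These 3 arrays were all from tofu rats, so 17 arrays remained and only the tofu groups were smaller. A second, dimmer probe set of Gpt2 gave 0.12 ± 0.032 (adjusted p = 0.105). Sds, by contrast, had a difference as large as that of Oat with a wider spread: it ran from 0.06 to 0.72 in CS, 0.43 to 0.81 in CF, 0.62 to 1.18 in TS and 0.49 to 1.59 in TF. The difference was 0.41 ± 0.12 (95% interval 0.16 to 0.66, adjusted p = 0.17), or 2.03-fold, and was not called in any of the alternatives. For Gpt, the cytosolic enzyme, it was 0.078 (interval -0.15 to 0.30).

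**Figure D3:**
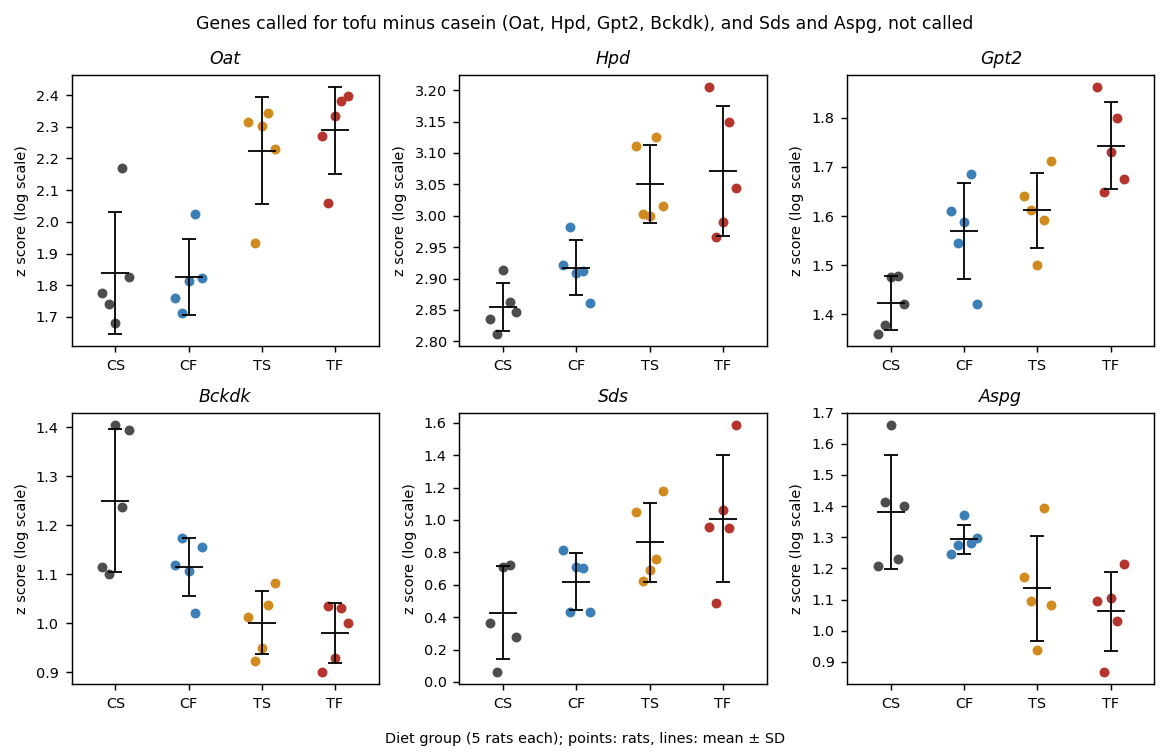
z scores (log scale, vertical axes differ) of Oat, Hpd, Gpt2, Bckdk, Sds and Aspg in the 5 rats of each diet group; points are rats and black lines give the mean ± SD. Tofu rats (TS, TF) lie mostly above casein rats (CS, CF) for Oat, Hpd, Gpt2 and Sds and mostly below them for Bckdk and Aspg, and the ranges overlap in each panel.

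In the branched-chain pathway, with 13 genes measured, the kinase was the one called. Bckdk, the kinase that inactivates the branched-chain dehydrogenase complex, was lower on tofu. Its z was 1.12, 1.10, 1.40, 1.24 and 1.39 in CS, 1.12, 1.17, 1.11, 1.02 and 1.16 in CF, 1.01, 0.92, 0.95, 1.04 and 1.08 in TS, and 0.90, 1.04, 0.93, 1.03 and 1.0 in TF. The 3 highest rats were all in CS, and 6 of the tofu rats were below every casein rat. Bckdk fell by 0.19 ± 0.041 (adjusted p = 0.0379), or 1.39-fold. This call was lost without any 1 of 15 rats, all but CS-1, CS-2, CF-6, TS-7 and TF-4, with adjusted p from 0.0503 to 0.0804, while the difference stayed between -0.21 and -0.17. It was also lost without the 3 least correlated arrays, at -0.20 (adjusted p = 0.10), and with the rat number as a block, also at -0.20 (0.142, the highest of its alternatives). All 12 other genes of the pathway had differences above 0, with a median of 0.087, and none was called. Over all genes 58.0% were above 0, and 64.9% of those with a mean z above 1. An unadjusted p under 0.05 (limma) was found for 8 of the 12, compared with 11.5% of all genes. Among genes with a mean z above 1 that share was 20.6%.

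Within the complex itself, Bckdhb, the β chain of its first component, had the largest difference, 0.20 ± 0.064 (adjusted p = 0.218), or 1.42-fold. Its z ran from 1.35 to 1.86 in CS, 1.50 to 1.93 in CF, 1.80 to 1.98 in TS and 1.86 to 1.98 in TF, so that low values occurred in single casein rats (CS-1, CS-7 and CF-7). Bckdha, the α chain of the same component, gave 0.020 (interval -0.06 to 0.10) and Dbt, the transacylase core, 0.069 (-0.02 to 0.15). Bcat2, the transaminase before the complex, had group means of 0.058 (CS), 0.052 (CF), 0.096 (TS) and 0.098 (TF) and a difference of 0.042 (-0.03 to 0.11). After the complex, 7 of 8 enzymes had an unadjusted p under 0.05, compared with 11.5% of all genes and 20.6% of those with a mean z above 1. Ivd, the isovaleryl-CoA dehydrogenase of leucine breakdown, led them with 0.16 ± 0.044 (adjusted p = 0.136), or 1.32-fold. Its z ran from 1.70 to 1.99 in CS, 1.89 to 2.07 in CF, 1.88 to 2.12 in TS and 1.99 to 2.22 in TF, so that the casein and tofu groups overlapped. Hibch and Hibadh, which act on valine intermediates, gave 0.13 (adjusted p = 0.179) and 0.081 (0.289), and Aldh6a1, the methylmalonate-semialdehyde dehydrogenase, gave 0.093 (0.332). Mccc1 and Mccc2, the subunits of methylcrotonyl-CoA carboxylase, gave 0.11 (0.455) and 0.067 (0.411). The subunits of propionyl-CoA carboxylase gave 0.12 (0.269) for Pcca and 0.0087 (0.955) for Pccb.

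Tryptophan breakdown begins with Tdo2, the tryptophan dioxygenase, whose group means were 2.52 (CS), 2.59 (CF), 2.54 (TS) and 2.65 (TF) and whose difference was 0.038 (interval -0.06 to 0.14). Kynu (kynureninase) had the lowest p of the 7 genes, with 0.11 ± 0.031 (adjusted p = 0.133), and all 10 tofu rats were above its casein mean. Kmo and Haao, which act before and after Kynu, gave 0.082 (adjusted p = 0.32) and 0.062 (0.488). Afmid, the formamidase, gave -0.021 (0.926), and Acmsd, which turns the intermediate away from NAD synthesis, 0.11 (0.819). Ddc, the aromatic amino acid decarboxylase, gave 0.061 (0.822), and its lowest value in each group was in rat CS-1, CF-1, TS-1 or TF-3, at 1.02, 1.28, 1.22 and 1.22, against 1.42 to 1.72 in the other 16 rats. The same 4 rats had a 5′ beta-actin control between 1.30 and 1.42 in z, against 1.86 to 2.13 in the others, with 1 such rat in each diet group. Got1 was the only other gene of the 45 that was lowest in its group in all 4 of these rats, at 1.40, 1.46, 1.59 and 1.52. With these 4 rats set against the other 16 as a block, the same 4 genes were called in the protein effect as without it. Without the 4 rats 0 of the 45 were called, at 4 rats a group, with Gpt2 at 0.16 and Bckdk at -0.20 and adjusted p from 0.0658 for Oat to 0.166 for Gpt2 (limma).

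Of the remaining pathways, no gene was called in the protein effect. Aspg, an asparaginase that turns asparagine into aspartate, came nearest with -0.24 ± 0.061 (interval -0.37 to -0.11, adjusted p = 0.0933), or 1.51-fold lower. It ran from 1.21 to 1.66 in CS, 1.25 to 1.37 in CF, 0.94 to 1.40 in TS and 0.87 to 1.21 in TF, and 8 of the tofu rats were below every casein rat. Without rat TS-5, the highest of the tofu groups, its difference was -0.27 with an adjusted p of 0.0339. This was the 1 call in the 20 fits that left out 1 rat. In the other 19 the adjusted p ran from 0.0677 to 0.179. Aspg was called in 2 of 11 other alternatives, and without the 3 least correlated arrays its adjusted p was 0.301. The aspartate aminotransferases gave 0.11 (adjusted p = 0.57) for Got1 and 0.053 (0.565) for Got2. Glud1, the glutamate dehydrogenase that releases ammonia, gave 0.075 (0.363), and Gls2, the liver glutaminase, had group means of 1.82 (CS), 1.97 (CF), 1.92 (TS) and 1.98 (TF) and a difference of 0.054 (interval -0.06 to 0.17). Aass, the first enzyme of lysine breakdown, had group means of 2.004 (CS), 1.986 (CF), 2.200 (TS) and 2.079 (TF) and a difference of 0.14 (0.02 to 0.27, adjusted p = 0.409), and Aadat, which acts later in the pathway, gave 0.055 (0.662).

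In histidine breakdown, Hal, the histidase that begins it, had group means of 1.72 (CS), 1.71 (CF), 1.84 (TS) and 1.78 (TF) and a difference of 0.090 (interval -0.01 to 0.19). Uroc1 and Ftcd, the next enzymes measured, gave -0.0066 (adjusted p = 0.978) and 0.060 (0.657). Gldc, the decarboxylase of the glycine cleavage system, had group means of 1.16 (CS), 1.17 (CF), 1.19 (TS) and 1.15 (TF) and a difference of 0.0055 (interval -0.11 to 0.12). Amt, the aminomethyltransferase of that system, gave 0.036 (0.769). The glyoxylate aminotransferases gave -0.0089 (0.963) for Agxt and 0.087 (0.75) for Agxt2.

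Fish oil in place of soybean oil was followed by no call among the 45 genes, where 0.302% of all genes and 1.11% of those with a mean z above 1 were called. An unadjusted p under 0.05 was found for 5 genes (11.1%), compared with 5.55% of all genes and 7.51% of those with a mean z above 1. The difference was above 0 for 31 of the 45 (68.9%), against 48.2% of all genes and 54.3% of those with a mean z above 1, and its median was 0.038. Gpt2, the mitochondrial alanine aminotransferase, had the lowest p, with 0.14 ± 0.038 (interval 0.06 to 0.22, adjusted p = 0.327), or 1.27-fold. As its values above show, the CF rats exceeded the CS rats except for CF-7, and 9 of the 10 fish oil rats were above the soybean oil mean.

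Agxt, the aminotransferase that detoxifies glyoxylate, had the next lowest p for the oil effect. Its z was 1.83, 1.87, 1.96, 1.98 and 1.99 in CS, 2.01, 2.01, 2.01, 2.09 and 1.99 in CF, 1.86, 1.79, 1.88, 1.98 and 2.04 in TS, and 2.15, 1.99, 1.96, 1.97 and 2.03 in TF. All 10 fish oil rats were above the soybean oil mean, with overlapping ranges, and the oil effect was 0.10 ± 0.036 (interval 0.03 to 0.18, adjusted p = 0.642). Hibch, the 3-hydroxyisobutyryl-CoA hydrolase of valine breakdown, was 0.84, 0.53, 0.58, 0.73 and 0.56 in CS, 0.74, 0.71, 0.71, 0.78 and 0.75 in CF, 0.77, 0.78, 0.84, 0.69 and 0.75 in TS, and 0.81, 0.99, 0.83, 0.83 and 0.97 in TF. All fish oil rats again lay above the soybean oil mean, and the oil effect was 0.11 ± 0.039 (0.02 to 0.19, adjusted p = 0.707).

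Acmsd had the largest oil effect in size, and it was the one among the 5 with a lower value on fish oil. Its z was 0.15, -0.07, 0.29, 0.33 and -0.32 in CS, -0.30, 0.13, -0.03, -0.08 and -0.36 in CF, 0.34, 0.29, 0.29, 0.22 and 0.30 in TS, and -0.73, 0.33, 0.21, 0.08 and -0.52 in TF. The TS rats were close together, while the TF rats covered almost the whole range of the gene. The oil effect was -0.31 ± 0.12 (interval -0.56 to -0.05, adjusted p = 0.754), and since its group means lay near the array medians no fold is given. It was -0.23 without TF-3 and -0.20 (adjusted p = 0.93) without the 4 rats with a low actin control, which include TF-3. Without the 3 least correlated arrays it was -0.44 (0.309). Bckdha gave 0.097 ± 0.039 (adjusted p = 0.764). Its second probe set, near the array medians with a mean z of 0.0058, gave 0.0012 (interval -0.11 to 0.11). The dimmer probe set of Gpt2 gave an oil effect of 0.077 ± 0.032 (adjusted p = 0.814). The other genes with large oil effects had intervals that included 0. These effects were 0.17 (-0.08 to 0.42) for Sds, 0.15 (-0.07 to 0.37) for Gpt, 0.11 (-0.03 to 0.24) for Bckdhb and 0.098 (-0.01 to 0.21) for Gls2. For Oat, Hpd and Bckdk, called on tofu, the oil effects were 0.026, 0.042 and -0.079, with intervals that included 0.

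**Figure D4:**
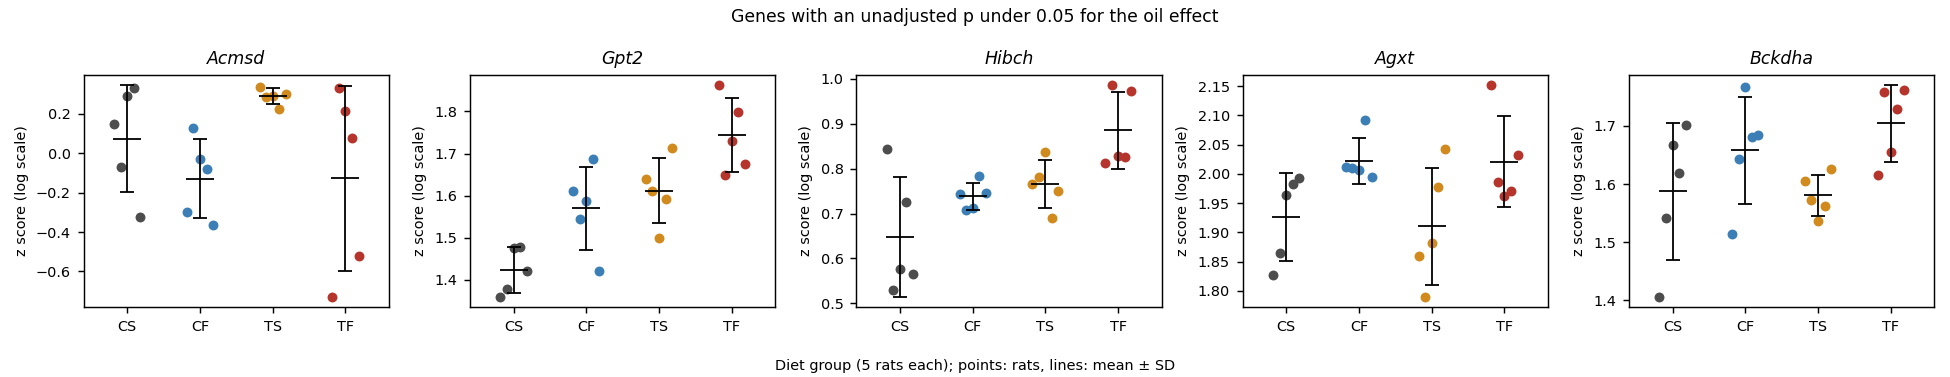
z scores (log scale, vertical axes differ) of the 5 genes with an unadjusted p under 0.05 for the oil effect in the 5 rats of each diet group; points are rats and black lines give the mean ± SD. The fish oil groups (CF, TF) have the higher means for Gpt2, Hibch, Agxt and Bckdha and the lower means for Acmsd, and none of the 5 was called after adjustment.

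Tofu and casein could also be compared within each oil, in rats that do not overlap between the comparisons. The difference had the same sign on soybean oil and on fish oil for 38 of the 45 genes (84.4%), above 0 in both for 32 and below 0 in both for 6. For all genes the share of equal signs was 61.7%, and for genes with a mean z above 1 it was 72.3%. None of the 45 was called in TS against CS, where 0.106% of all genes were called, or in TF against CF, where 0.0985% were. An unadjusted p under 0.05 was found for 17 of the 45 in TS against CS, compared with 7.53% of all genes and 360 of the 2784 genes with a mean z above 1. In TF against CF it was found for 9, compared with 7.08% of all genes and 279 of the 2784. The difference of Hpd was 0.20 (adjusted p = 0.198) on soybean oil and 0.15 (0.406) on fish oil, and that of Gpt2 0.19 (0.308) and 0.17 (0.434). For Sds it was 0.43 (0.57) and 0.39 (0.687), for Aspg -0.25 (0.482) and -0.23 (0.60), and for Bckdk -0.25 (0.198) and -0.14 (0.687). No interaction of protein and oil was called for any of the 45, nor for any gene on the arrays. The interaction of Hgd, at -0.20, was the one with an unadjusted p under 0.05 (0.0235), with 0.21 on soybean oil and 0.0050 on fish oil, and 2.53% of all genes had such a p.

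**Figure D5:**
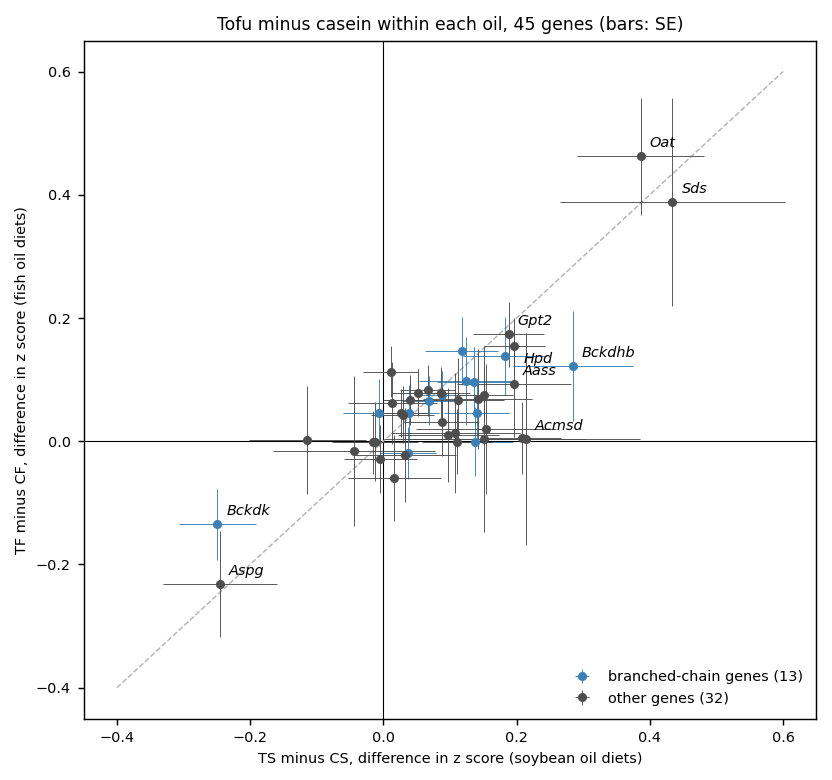
Tofu minus casein difference in z score on soybean oil (TS minus CS, horizontal) and on fish oil (TF minus CF, vertical) for the 45 genes, with SE bars, branched-chain genes in blue and the dashed line marking equal differences. Oat and Sds lie at the upper right, Bckdk and Aspg at the lower left, and 38 of the 45 genes have the same sign in both.

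For the oils, fish oil minus soybean oil had the same sign on casein and on tofu for 32 of the 45 genes (71.1%), against 54.3% of all genes and 58.4% of those with a mean z above 1. None of the 45 was called in CF against CS, where 0.0844% of all genes were called, or in TF against TS, where 0.134% were. An unadjusted p under 0.05 was found for 5 of the 45 in CF against CS, compared with 3.4% of all genes and 4.17% of those with a mean z above 1, and for 6 in TF against TS, compared with 5.16% and 6.03%. When both components were replaced, TF against CS, the same 4 genes were called as in the protein effect, with which this comparison shares rats, and 0.753% of all genes were called. Gpt2 differed by 0.32 (adjusted p = 0.0072), or 1.73-fold. Oat differed by 0.45 (0.0392), Hpd by 0.22 (0.0403) and Bckdk by -0.27 (0.0439). With a fit of these groups alone, Gpt2 was the one gene called.

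Of 31 measured enzymes of the same pathways outside the list, 23 (74.2%) had a protein effect above 0, with a median of 0.069. Over all genes 58.0% did, and 64.9% of those with a mean z above 1. An unadjusted p under 0.05 was found for 16, compared with 11.5% of all genes and 20.6% of those with a mean z above 1. None of the 31 was called in the protein effect. Gcdh, the glutaryl-CoA dehydrogenase of lysine and tryptophan breakdown, was called in TF against CS (0.33, adjusted p = 0.0132) and had a protein effect of 0.18 (adjusted p = 0.0636). Among 10 transcriptional regulators that act on these genes, 3 had a protein effect above 0 and 7 below, with a median of -0.0098 and no call. Creb3l3, a liver transcription factor of fasting metabolism, was called in the oil effect at 0.20 (adjusted p = 0.0165), or 1.40-fold.

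Markers of perivenous hepatocytes, the cells next to the central vein in which Oat is known to be concentrated, were among the genes called on tofu. Of 7 measured, 6 had a protein effect above 0 and 2 were called higher, Cyp1a2, a cytochrome P450, at 0.43 (adjusted p = 0.0092) and Slc1a2, a glutamate transporter, at 0.34 (0.0023), where 0.521% of all genes were called higher. The mean z of Slc1a2 was -0.035, near the array medians, and that of Lgr5, another of the 7, was -0.53, while Cyp1a2 had 2.26. Protein effects of the 7 ran from -0.015 to 0.48, with a median of 0.21, and the gene at 0.48 was not called. An unadjusted p under 0.05 (limma) was found for 6 of the 7. Over all genes that share was 11.5%, and over genes with a mean z above 1 it was 20.6%. The mean over the 7 markers ran from 0.72 to 0.96 in CS, 0.74 to 0.97 in CF, 1.02 to 1.19 in TS and 1.09 to 1.24 in TF. Their part in the difference of Oat was not tested. Of 8 periportal markers 5 were above 0 and none was called, with means over the list from 2.55 to 2.66 in CS, 2.52 to 2.66 in CF, 2.60 to 2.70 in TS and 2.52 to 2.71 in TF. Of 7 hepatocyte markers 6 were above 0, with a median of 0.066, and none was called, and their mean ran from 3.19 to 3.32 in CS, 3.19 to 3.35 in CF, 3.27 to 3.42 in TS and 3.21 to 3.46 in TF. The other lists held a stellate cell marker, Rgs5, at 0.28 (0.0151) and a red blood cell marker, Slc4a1, at 0.25 (0.0327) as called genes, while 6 of 6 endothelial, 5 of 5 Kupffer cell, 5 of 7 stellate cell, 3 of 5 cholangiocyte, 2 of 5 lymphocyte and 2 of 3 red blood cell markers had protein effects above 0. Over all genes 58.0% had a protein effect above 0, and 64.9% of those with a mean z above 1. The mean z of Rgs5 was 0.013, near the array medians, and that of Slc4a1 was 0.17. Several defining markers of the non-hepatocyte lists, such as Krt7, Cftr, Cd3e and Des, had mean z values below 0. Their part in the differences of the 45 genes was not tested.

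Further probe sets were present for 9 of the 45 genes, 11 in all, and none of these was called in the protein effect. Besides that of Gpt2, those at mean z above 1 gave 0.038 for Glud1 and 0.10 for Aldh6a1, against 0.075 and 0.093 for the brighter ones, and -0.016 and 0.022 for Afmid, against -0.021. Opposite signs to the brighter probe set were given by this last one of Afmid and by those of Got2 (-0.094) and Dbt (-0.0043), both below 0 in mean z.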

How the data were processed

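Liver mRNA was measured on 1 Affymetrix array per rat, in 4 groups of 5. Signals were converted by the authors through SuperNORM into z scores, on a log scale and relative to the distribution of each array, and these scores are the deposited values. By the study's methods its own group differences were trimmed means over perfect match cells. How cells were combined into the deposited value of each rat, and how background was treated, is not given in the sources used here, and no depth or detection measure accompanies the values, so the number of arrays limits the precision. A shift shared by most genes of an array would not be seen on this scale.

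The table held 31099 probe sets, of which 31039 were tested after removal of 57 controls and of those with fewer than 3 values in a group. Current symbols were assigned by gene identifier to 20764 probe sets, whether or not the symbol changed, and 68 kept the symbol of the array annotation. The brightest probe set per symbol gave 14217 genes. The listed genes had no missing values. Group means were modelled with limma 3.58.1 in R 4.3.3, without covariates, with variance moderation, Benjamini-Hochberg adjustment over all probe sets, two-sided tests and 8 comparisons. Given with full statistics were genes called in any comparison and the 8 largest protein and oil effects, and with group means the first enzyme of each pathway and the gene of largest spread. Called genes, or otherwise the 4 with the lowest p, have values per rat. The listed genes, the context and marker lists and the alternatives were chosen with earlier results of these data known. The workflow was tested on simulated data. Alternatives were other normalizations, filters, variance models and arrays.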

Additional observations from a re-analysis of the deposited data

Results flagged for a closer look

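A rat that stood apart from the other 4 of its group (Dixon's test for 5 values, critical value 0.71) was found in 11 of 180 combinations of gene and group, where chance alone gives about 1 in 20. Rat TF-4 was low for Hal, at 1.677 in z against 1.784 to 1.815, and for Gldc, at 0.8767 against 1.170 to 1.270. Rat TS-2 was low for Oat, at 1.934 against 2.230 to 2.345, and for Mccc2, at 1.466 against 1.609 to 1.652. Rat CF-6 was high for Hgd, at 2.235 against 2.143 to 2.162, and for Agxt, at 2.092 against 1.994 to 2.011. Single values also stood apart for Fah in CS-5 (2.632, others 2.522 to 2.544), Ddc in CS-1 (1.024, others 1.418 to 1.500), Aldh6a1 in TF-5 (2.155, others 2.295 to 2.338), Pccb in CF-5 (1.778, others 1.721 to 1.736) and Aass in CF-2 (2.194, others 1.886 to 1.974). Of the genes called in the protein effect, Oat was the one with such a rat, and without TS-2 its difference was 0.46 with an adjusted p of 0.0012 (limma).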

How the results depend on the processing

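Of the 45 genes, 4 were called in the protein effect, and 7 with dim probe sets left out (Kynu, Ivd and Aspg in addition), 2 without the 3 least correlated arrays (Hpd and Oat) and 0 without the 4 rats with a low actin control, with 16 arrays in the fit. Leaving out each rat in turn gave 2 to 4 calls, and Oat and Hpd were called each time. In TF against CS, 4 genes were called, and 1 (Gpt2) in a fit of these groups alone. Rats of different groups share numbers in the labels. The 22 same-number pairs had deviations correlated from -0.098 to 0.13, with 1 pair over 0.1. Their median correlation was 0.037, against -0.0080 for the other pairs between groups. Of 19 rats, 6 correlated best with a rat of the same number. Among the 4 low actin rats, CS-1, CF-1 and TS-1 share a number. With the rat number as a replicate block, 3 genes (Hpd, Gpt2 and Oat) were called in the protein effect and 1 (Gpt2) in TF against CS. The block with the 4 low actin rats was chosen after seeing the data. No gene of the 45 was called in the oil effect or the interaction under any alternative, and no direction of a called gene turned. Over all probe sets, 173 were called in the protein effect, 357 with dim ones left out, 289 with a variance trend, 91 with the replicate block, 74 without the 3 arrays, 72 without the 4 rats and 114 without rat CS-2. In the oil effect 60 were called, 27 with the block and 34 without the 3 arrays. The causes of these changes were not tested. The signal over background is not known, which limits what can be said of Acmsd and Bcat2.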
